A study of Mus musculus with 12 samples.

Results

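Expression of 10 genes of the NF-kB system, namely 4 subunit genes (Nfkb1, Nfkb2, Rela and Relb), 2 genes of inhibitors that bind the subunits (Nfkbia and Nfkbie) and 4 target genes (Tnfaip3, Birc3, Traf1 and Icam1), was followed in cultured mouse mammary epithelial cells. The 10 were picked by symbol from the 28427 rows of the gene table, and each had 1 row. RNA sequencing was done on C57BL/6 mammary epithelial cells that carried no genetic change named in the labels. The cells grew for 48 h or 96 h in 1 of 2 formats, flat on a collagen coat (monolayers) or inside growth factor-reduced Matrigel, a basement membrane gel (spheroids), which gave 4 groups of 3 libraries. All groups received progesterone and prolactin, so no group without these hormones was measured, and the gels had fresh medium after 48 h. Matrix, shape and format differed together between monolayers and spheroids, so their parts cannot be told apart. A change of medium is given here for the gels only, so at 96 h its part cannot be told apart from format either.

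NF-kB is a family of transcription factors that act as pairs of subunits. Nfkb1 and Nfkb2 encode long precursors that are cut to DNA-binding subunits, while Rela and Relb encode subunits that activate transcription. In resting cells the pairs are held in the cytoplasm by IkB inhibitors. Signals from tumour necrosis factor, interleukin 1 or matrix and danger receptors activate the IkB kinase, which marks the inhibitors for destruction in the canonical route, whereas a slower route through the kinase encoded by Map3k14 acts on the Nfkb2 precursor and frees Relb. Many of the genes that NF-kB switches on, such as Nfkbia and Tnfaip3, shut the pathway down again, and these feedback genes are therefore often read as its products. In the mammary gland the pathway is known downstream of the receptor RANK, whose ligand is induced by progesterone. Transcript levels alone do not show where the proteins are or how active they are.

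All 10 genes fell in monolayers between 48 h and 96 h, where 31.3% of all tested genes fell. Birc3, an inhibitor of cell death, fell the furthest, from 57.1 ± 2.77 CPM to 19.6 ± 2.62 CPM (counts scaled to library depth, SD, n = 3 each), and Rela fell the least, from 122.7 ± 1.96 CPM to 94.7 ± 1.94 CPM. Over the same time in spheroids Nfkbia and Icam1 fell, Nfkbie and Traf1 rose, and the other 6 did not pass the test. There 20.5% of all tested genes fell and 19.3% rose. At 48 h, 7 of the 10 were lower in spheroids than in monolayers, where 26.4% of all tested genes were lower and 31.6% higher. At 96 h none was lower in spheroids and 6 were higher, where 37.3% of all tested genes were higher.

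The 12 libraries held 7674105 to 13554497 counts, and 13951 genes passed the filter on low counts, all 10 members among them. Every library correlated at 0.985 or above with each of its group's libraries across genes, and none stood apart from its group. The epithelial label was checked against 10 epithelial markers, all of which passed the filter and summed to between 5007.2 and 14467.8 CPM in a library. Of 10 immune cell markers, 5 passed the filter. The sum of all 10 was 25.1 to 51.4 CPM, and the pan-leukocyte gene Ptprc did not pass the filter. The 8 fibroblast markers summed to between 681.8 and 8562.1 CPM and the 8 endothelial markers to between 27.4 and 70.9 CPM. Total-count scaling moved the median log2 change of all genes by 0.109 for the 48 h comparison, by 0.171 for time in monolayers and by -0.187 for the interaction, and log2 FPKM values moved the last pair by 0.122 and -0.133. The share of calls that were higher went from 54.5% to 65.1% (65.2% on log2 FPKM) at 48 h, from 49.0% to 66.2% (65.2%) for time in monolayers and from 50.5% to 34.2% (35.6%) for the interaction.

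NF-kB pairs recognise short DNA stretches called kB sites. Promoters from RefSeq (build GRCm38.p6, another build than the mm9 of the counts) were at hand for 8 of the 10 genes. The 250 bases before the start were searched on both strands for the kB consensus with no mismatch, and 3 of the 8 genes held it at any of their listed starts, against 5.67% of the 27025 genes in the table. These 3, a subunit gene, an inhibitor gene and a feedback gene, are shown because they held a match. All 10 genes fell in monolayers with time, those without a match among them. The Nfkb2 promoter lies at chr19:46304487-46304736 on the plus strand, that of Nfkbia at chr12:55492648-55492897 on the minus strand and that of Tnfaip3 at chr10:19015411-19015660 on the minus strand. Each is written 5′ to 3′ in the direction of the gene, with the matches in capitals.
Nfkb2: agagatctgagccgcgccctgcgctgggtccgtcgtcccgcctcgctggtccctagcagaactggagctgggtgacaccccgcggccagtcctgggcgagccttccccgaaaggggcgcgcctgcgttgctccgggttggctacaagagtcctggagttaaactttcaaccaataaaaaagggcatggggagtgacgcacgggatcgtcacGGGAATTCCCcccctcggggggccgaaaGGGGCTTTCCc
Nfkbia: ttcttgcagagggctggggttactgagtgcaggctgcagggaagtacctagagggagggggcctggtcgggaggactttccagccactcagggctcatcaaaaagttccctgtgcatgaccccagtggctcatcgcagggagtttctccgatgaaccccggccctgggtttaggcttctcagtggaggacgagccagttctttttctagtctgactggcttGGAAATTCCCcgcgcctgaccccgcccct
Tnfaip3: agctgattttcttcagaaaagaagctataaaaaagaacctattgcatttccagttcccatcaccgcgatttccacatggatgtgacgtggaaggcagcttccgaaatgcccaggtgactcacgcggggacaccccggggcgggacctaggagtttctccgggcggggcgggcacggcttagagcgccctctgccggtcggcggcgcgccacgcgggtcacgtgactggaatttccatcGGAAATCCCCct
In Nfkb2 the matches GGGAATTCCC and GGGGCTTTCC lie 39 to 30 and 11 to 2 bases before the start. The first of them reads as a match on both strands. The match in Nfkbia, GGAAATTCCC, lies 29 to 20 bases before the start, and that in Tnfaip3, GGAAATCCCC, lies 12 to 3 bases before it, both on the strand opposite to the gene. A later start of Nfkb2 held a further match, GGGACTTTCC. Traf1, Birc3, Icam1, Nfkbie and Rela had no match in this window. A match of letters is a description of the sequence and was not measured as a binding site here.

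Nfkb1, the gene of the precursor whose product pairs with Rela, stood at 162.9, 160.6 and 161.8 CPM in the 48 h monolayers and at 106.8, 99.2 and 88.3 CPM in the 96 h monolayers. In spheroids it stood at 163.6, 180.4 and 181.3 CPM at 48 h and at 178.3, 178.8 and 180.6 CPM at 96 h. The 3 monolayers of 96 h were the low libraries, and they overlapped with no other group. Nfkb1 fell 1.65-fold in monolayers with time (log2 change -0.72 ± 0.0701 SE, adjusted p = 8.11e-08, edgeR quasi-likelihood test with Benjamini-Hochberg adjustment). It was 1.83-fold higher in spheroids than in monolayers at 96 h (0.87 ± 0.0698, adjusted p = 2.25e-09). At 48 h the spheroids lay just above the monolayers, without overlap, and the difference of 0.11 did not pass (adjusted p = 0.164, 95% interval -0.02 to 0.25), except under total-count scaling (0.22, adjusted p = 0.0117). Its time difference in spheroids was 0.03 (adjusted p = 0.724, 95% interval -0.10 to 0.17).

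Nfkb2, whose precursor is the substrate of the slower route, stood at 127.3, 123.1 and 128.5 CPM in the 48 h monolayers and at 58.5, 58.5 and 60.9 CPM in the 96 h monolayers. In spheroids it stood at 90.9, 103 and 94.8 CPM at 48 h and at 98.6, 111.6 and 97.9 CPM at 96 h. The monolayers were thus above every spheroid at 48 h and below every spheroid at 96 h. The difference between spheroids and monolayers was -0.39 ± 0.0669 at 48 h (1.31-fold lower, adjusted p = 6.15e-05) and 0.79 ± 0.0689 at 96 h (1.73-fold higher, adjusted p = 7.19e-09). In monolayers Nfkb2 fell 2.13-fold with time, the largest fall among the 4 subunit genes.

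Rela encodes the main activating subunit of the canonical route. It stood at 123.4, 120.4 and 124.1 CPM in the 48 h monolayers, and its libraries in the other 3 groups lay between 93.3 and 104.6 CPM. The 48 h monolayers were the high group, and the other 3 groups overlapped. Rela fell 1.29-fold with time in monolayers (log2 change -0.37 ± 0.0622, adjusted p = 5.11e-05) and was 1.22-fold lower in spheroids than in monolayers at 48 h (adjusted p = 0.00057). At 96 h the difference between formats was 0.06 (adjusted p = 0.393) and its sign turned with the scaling (-0.034 with upper-quartile and -0.019 with total-count scaling).

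Relb, the partner of the processed Nfkb2 product, varied more between libraries of a group than the other subunit genes in monolayers. It stood at 41.8, 37.6 and 49.7 CPM in the 48 h monolayers and at 32.2, 25.6 and 23.6 CPM in the 96 h monolayers. In spheroids it stood at 36, 33.1 and 32.3 CPM at 48 h and at 33.3, 34.1 and 34.9 CPM at 96 h. The 48 h monolayers were above all other libraries, if only by a small margin at 37.6 CPM. Relb fell 1.58-fold in monolayers with time (log2 change -0.66 ± 0.111, adjusted p = 5.67e-05). Between formats it was 1.27-fold lower in spheroids at 48 h (adjusted p = 0.0114) and 1.25-fold higher at 96 h (adjusted p = 0.0143). The 48 h call ended without replicate 3 of the 48 h monolayers (adjusted p = 0.0593), under total-count scaling (0.0764) and on log2 FPKM values (0.0952). The 96 h call of Relb ended without replicate 2 (adjusted p = 0.0554) or 3 (0.0874) of the 96 h monolayers and under upper-quartile (0.077) and total-count scaling (0.0619).

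**Figure D1:**
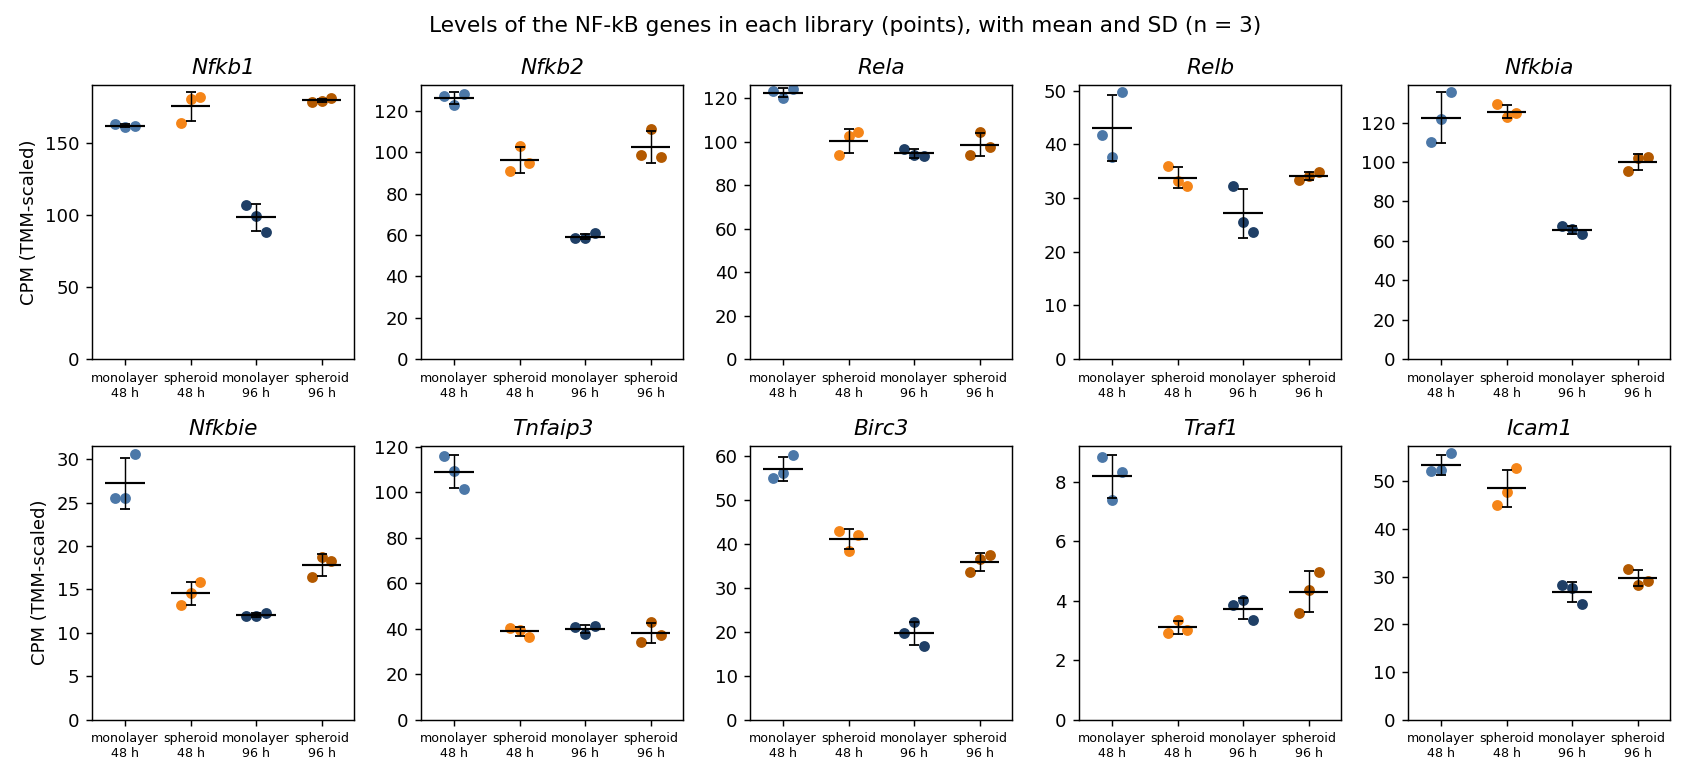
Level of each of the 10 genes in CPM, scaled by TMM, in every library (points), by culture format and time; lines and bars are the mean and SD of 3 libraries. For Nfkb2 the 96 h monolayers sit between 58.5 and 60.9 CPM, below every other library, and for Tnfaip3 the 48 h monolayers, from 101.7 to 116.2 CPM, sit above every other library.

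Nfkbia encodes IkB-alpha, the inhibitor that NF-kB itself induces within the canonical loop, and its promoter with a kB match is printed above. It stood at 109.9, 122 and 135.5 CPM in the 48 h monolayers and at 129.3, 122.7 and 124.7 CPM in the 48 h spheroids, and these groups overlapped. At 96 h it stood at 67.6, 65.9 and 63.6 CPM in monolayers and at 95.3, 102.1 and 102.5 CPM in spheroids, and each of these groups lay below both 48 h groups. Nfkbia fell 1.86-fold in monolayers (log2 change -0.90 ± 0.0729, adjusted p = 7.24e-09) and 1.26-fold in spheroids (-0.33 ± 0.0707, adjusted p = 0.00114). It was 1.52-fold higher in spheroids than in monolayers at 96 h (adjusted p = 5.71e-07). The 48 h difference of 0.04 did not pass (adjusted p = 0.687, 95% interval -0.10 to 0.17), and its sign turned under RLE scaling (-0.004).

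Nfkbie encodes IkB-epsilon, a further inhibitor of Rela-containing pairs, and was present at lower counts. It stood at 25.5, 25.5 and 30.6 CPM in the 48 h monolayers and at 11.9, 11.9 and 12.3 CPM in the 96 h monolayers. In spheroids it stood at 13.2, 14.6 and 15.8 CPM at 48 h and at 16.4, 18.7 and 18.3 CPM at 96 h. No pair of groups overlapped, and the order from high to low was 48 h monolayers, 96 h spheroids, 48 h spheroids and 96 h monolayers. Nfkbie was 1.87-fold lower in spheroids than in monolayers at 48 h (log2 change -0.91 ± 0.104, adjusted p = 5.06e-07) and 1.48-fold higher at 96 h (0.56 ± 0.107, adjusted p = 0.000124). It fell 2.26-fold with time in monolayers and rose 1.23-fold in spheroids (adjusted p = 0.0354). The rise in spheroids is a weak call: it ended without replicate 1 (adjusted p = 0.144) or 2 (0.0699) of the 48 h spheroids, without replicate 2 (0.105) or 3 (0.098) of the 96 h spheroids, under upper-quartile scaling (0.054), with the stricter filter (0.0504) and in DESeq2 (0.0759).

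Tnfaip3 encodes a ubiquitin-editing enzyme that ends signalling from tumour necrosis factor receptors, and it too has a kB match in the promoter printed above. It stood at 116.2, 109.6 and 101.7 CPM in the 48 h monolayers, and between 34.1 and 43 CPM in all 9 other libraries. Its pattern was thus a single high group, with the other 3 groups overlapping. Tnfaip3 was 2.81-fold lower in spheroids than in monolayers at 48 h (log2 change -1.49 ± 0.0829, adjusted p = 2.08e-11), the largest difference of the 10 genes in that comparison. In monolayers it fell 2.72-fold with time. At 96 h the formats differed by -0.07 (adjusted p = 0.451, 95% interval -0.24 to 0.10), and in spheroids the time difference was -0.03 (adjusted p = 0.824).

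Birc3 encodes a ubiquitin ligase of the inhibitor of apoptosis family that acts on the receptor complexes upstream of NF-kB. It stood at 54.9, 56.1 and 60.2 CPM in the 48 h monolayers and at 19.8, 22.2 and 16.9 CPM in the 96 h monolayers. In spheroids it stood at 42.9, 38.5 and 42.1 CPM at 48 h and at 33.7, 36.6 and 37.6 CPM at 96 h. No groups overlapped, with the spheroids of both times between the monolayers of 48 h above and those of 96 h below. Birc3 fell 2.93-fold with time in monolayers (log2 change -1.55 ± 0.0898, adjusted p = 7.33e-11). It was 1.39-fold lower in spheroids than in monolayers at 48 h (adjusted p = 8.86e-05) and 1.84-fold higher at 96 h (adjusted p = 8.12e-08). Its time difference in spheroids of -0.20 did not pass (adjusted p = 0.0778), but passed with the stricter filter (0.0469) and when the 2 spheroid groups were fitted alone (0.0216).

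Traf1, an adaptor of tumour necrosis factor receptors and a feedback target, was the scarcest of the 10, with 27 to 93 counts in a library. It stood at 8.82, 7.38 and 8.32 CPM in the 48 h monolayers and at 3.84, 4.01 and 3.35 CPM in the 96 h monolayers. In spheroids it stood at 2.93, 3.36 and 3.01 CPM at 48 h and at 3.59, 4.36 and 4.97 CPM at 96 h. As with Tnfaip3, the 48 h monolayers were the high group. Traf1 was 2.63-fold lower in spheroids at 48 h (log2 change -1.40 ± 0.176, adjusted p = 1.73e-06) and fell 2.19-fold with time in monolayers (adjusted p = 1.36e-05). Its rise in spheroids (1.39-fold, adjusted p = 0.0494) lay at the threshold and ended under 18 of 21 alternatives, with adjusted p up to 0.196 (without replicate 3 of the 96 h spheroids). At 96 h the formats differed by 0.21 (adjusted p = 0.283, 95% interval -0.13 to 0.56).

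Icam1 encodes an adhesion molecule that leukocytes bind and is a classical NF-kB target. Its row also carries the symbol H1f0, a linker histone gene that has a row of its own. The length implied by the counts and FPKM of the row, 2545 bases, is near the longest coding transcript of Icam1 (2535 bases) and above that of H1f0 (2055 bases). The same estimate gave 2299 bases for H1f0's own row, so it is only a rough guide. The levels also differed, since H1f0's own row stood at 156.5 ± 2.55 CPM in the 96 h spheroids and 57.7 ± 2.5 CPM in the 96 h monolayers. The Icam1 row stood at 52.2, 52.3 and 55.9 CPM in the 48 h monolayers and at 45.1, 47.8 and 52.7 CPM in the 48 h spheroids. At 96 h it stood at 28.2, 27.6 and 24.3 CPM in monolayers and at 31.6, 28.3 and 29.2 CPM in spheroids. Time rather than format separated the libraries, with all 96 h libraries below all 48 h libraries. Icam1 fell 2-fold in monolayers (log2 change -1 ± 0.0819, adjusted p = 7.81e-09) and 1.63-fold in spheroids (-0.71 ± 0.0807, adjusted p = 1.18e-06). Between formats it did not pass at 48 h (-0.14, adjusted p = 0.131) or at 96 h (0.16, adjusted p = 0.106).

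Set against all tested genes, the counts read as follows. In monolayers 10 of 10 members fell with time, where 31.3% of all genes fell and 30.1% rose. For each of the 10, every 96 h monolayer lay below every 48 h monolayer, which held for 31.8% of all genes. The median log2 change of the members was -1.04, against 0.01 over all genes. All 10 were called lower under each of the 21 alternatives. In spheroids 2 members rose and 2 fell with time, where 19.3% of all genes rose and 20.5% fell. The median of the members was 0.00, and the groups of 5 members did not overlap, against 53.8% of all genes.

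At 48 h, 7 members were lower in spheroids and none was higher, where 26.4% of all genes were lower and 31.6% higher. The median was -0.37 against 0.05 over all genes, and 8 members had groups that did not overlap, against 60% of all genes. At 96 h, 6 members were higher in spheroids, where 37.3% of all genes were higher and 36.5% lower. Their median was 0.44 against 0.00 over all genes, and for 7 every spheroid lay above every monolayer, which held for 40% of all genes. The comparison of formats at 48 h and that of times in monolayers share the 48 h monolayers, so a high value there lowers both.

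The difference between formats itself differed between 48 h and 96 h for all 10 genes: the culture format by time interaction was positive and passed for each, where it passed in that direction for 26.9% of all genes and in the other for 26.4%. It was largest for Traf1 (log2 1.61 ± 0.251, adjusted p = 3.14e-05), Nfkbie (1.47 ± 0.149, adjusted p = 1.92e-07), Tnfaip3 (1.42 ± 0.119, adjusted p = 1.64e-08) and Birc3 (1.35 ± 0.124, adjusted p = 4.84e-08). It was smallest for Icam1 (0.30 ± 0.115, adjusted p = 0.0379) and Rela (0.35 ± 0.0881, adjusted p = 0.00265). The call of Rela ended under total-count scaling (adjusted p = 0.132) and on log2 FPKM values (0.114). That of Icam1 ended under upper-quartile (0.122) and total-count scaling (0.454), with the stricter filter (0.0879), on log2 FPKM values (0.487) and without any of 7 single libraries: replicate 2 (0.0503) or 3 (0.0633) of the 48 h monolayers, 1 (0.0885) or 2 (0.058) of the 48 h spheroids, 3 of the 96 h monolayers (0.101) and 1 (0.0938) or 3 (0.0502) of the 96 h spheroids.

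**Figure D2:**
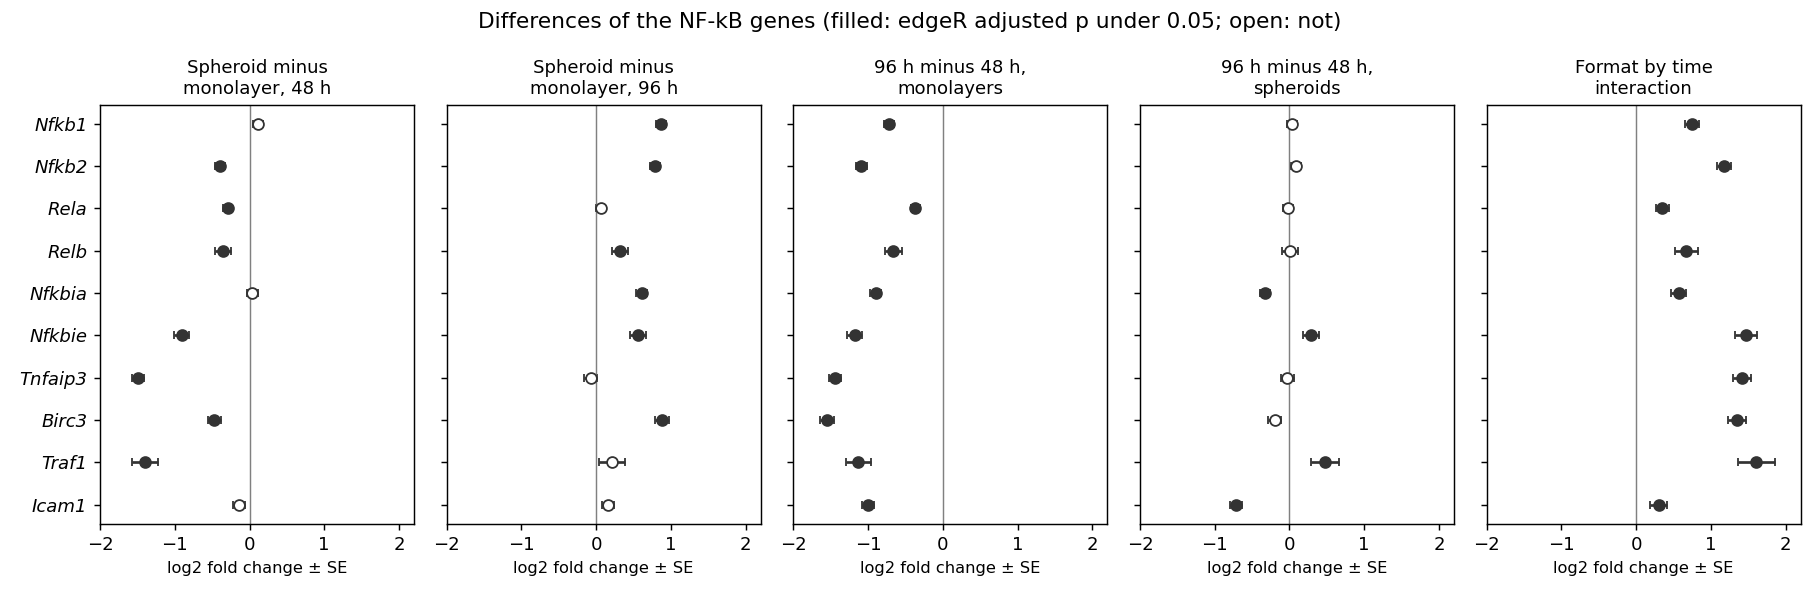
Log2 fold change of each of the 10 genes with its standard error in the 5 comparisons; filled points passed edgeR's test at an adjusted p under 0.05. All 10 points are filled and below 0 for time in monolayers, from -1.55 to -0.37, while in spheroids 4 are filled, 2 on each side of 0. Of all tested genes 31.3% fell in monolayers, and in spheroids 20.5% fell and 19.3% rose.

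The groups can also be ordered by level. The mean was highest in the 48 h monolayers for 8 of the 10 genes, as for 19.5% of all tested genes, and lowest in the 96 h monolayers for 8, as for 32.4% of all genes. Both held for 6 genes, against 5.22% of all genes. The exceptions at the top were Nfkb1 (96 h spheroids) and Nfkbia (48 h spheroids), whose leading groups overlapped with a neighbour. The exceptions at the bottom were Tnfaip3 and Traf1, whose 3 lower groups overlapped in part. These shares describe the libraries, since the genes were listed with results of the same data known.

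Levels were compared between genes per length, as FPKM (fragments scaled to gene length and library depth). Nfkbia was the most abundant of the 10 in every group, from 44.2 ± 1.91 FPKM in the 96 h monolayers to 80.7 ± 2.29 FPKM in the 48 h spheroids. Traf1 was the least abundant in every group, from 1.5 ± 0.0458 to 3.84 ± 0.324 FPKM, and Nfkbie was next. In 3 of the 4 groups Nfkb1 stood above Rela, for example at 50.4 ± 0.282 FPKM against 36.1 ± 1.94 FPKM in the 96 h spheroids. In the 96 h monolayers the order was turned, with Nfkb1 at 29.7 ± 3.91 FPKM and Rela at 36.7 ± 1.34 FPKM, and the libraries of the 2 genes did not overlap in any group. Tnfaip3 took the sixth place in the 48 h monolayers, at 23.2 ± 1.91 FPKM and overlapping with Relb, and the eighth place in the other groups.

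The balance of the genes within a library moved as well. The FPKM ratio of Nfkb1 to Rela was 1.06 ± 0.0456 in the 48 h monolayers and 0.81 ± 0.0878 in the 96 h monolayers, against 1.33 ± 0.0291 and 1.40 ± 0.0764 in spheroids of 48 h and 96 h. The ranges of monolayers and spheroids did not overlap at either time. The ratio of the inhibitor gene Nfkbia to Rela was 1.74 ± 0.177 and 1.21 ± 0.0188 in monolayers, and 2.18 ± 0.181 and 1.76 ± 0.0642 in spheroids, of 48 h and 96 h in turn. It was lower at 96 h than at 48 h in each format, without overlap. The ratio of Nfkb2 to Relb was 1.92 ± 0.238 in the 48 h monolayers and 1.43 ± 0.232 in the 96 h monolayers, whose ranges (1.65 to 2.1 and 1.2 to 1.66) overlapped. In spheroids it was 1.82 ± 0.199 at 48 h and 1.93 ± 0.178 at 96 h. Ratios of FPKM are descriptions without a test.

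**Figure D3:**
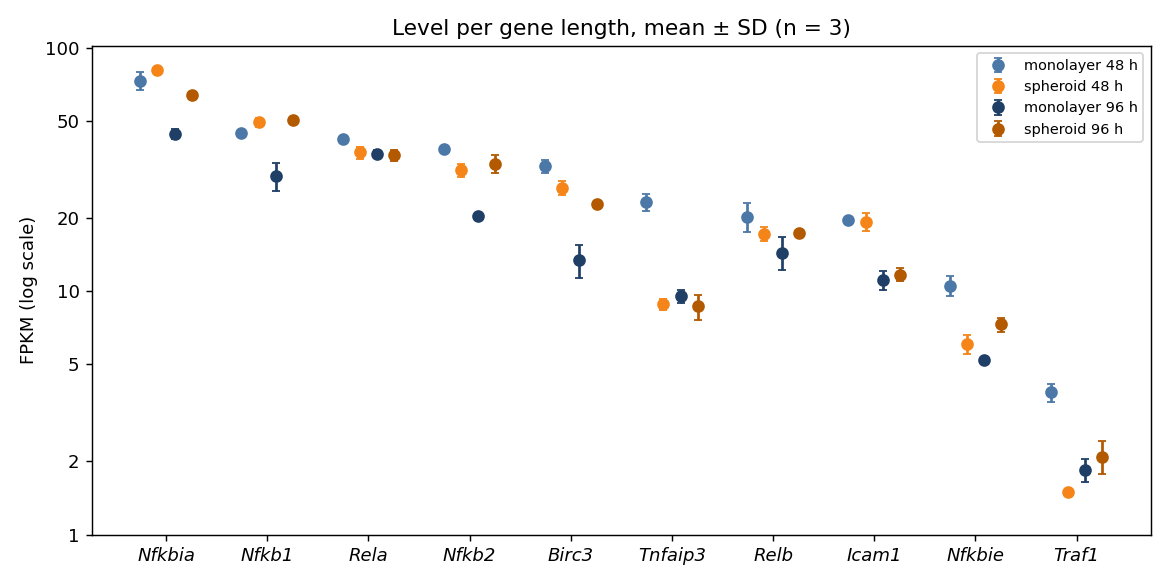
Level per gene length of the 10 genes, in FPKM on a log axis, as mean and SD of 3 libraries per group, ordered by the level in 48 h monolayers. Nfkbia is at the top of every group (44.2 to 80.7 FPKM) and Traf1 at the bottom (1.5 to 3.84 FPKM).

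Marker genes of cell types also differed between the groups, and the marker lists did not all go the same way. Between 48 h and 96 h the sum of the 10 epithelial markers in monolayers went from between 12547.3 and 14467.8 CPM to between 5007.2 and 5402 CPM, and that of the 8 fibroblast markers from between 7789.9 and 8562.1 CPM to between 1768.1 and 2426.3 CPM. The fibroblast sum was carried by Col1a1 and Col1a2, at 4028.9 ± 219 and 3062.6 ± 155 CPM in the 48 h monolayers. Of the 8 fibroblast markers 6 fell with time in monolayers, where 31.3% of all genes fell and 30.1% rose. Pdgfra rose 2.90-fold (47.2 ± 5.01 to 136.7 ± 17.3 CPM) and Dcn rose 2.87-fold (107 ± 7.45 to 307.7 ± 42 CPM). In spheroids the epithelial sum went from between 8430.6 and 9017.4 CPM to between 7777.9 and 8149.3 CPM. Of the 10 epithelial markers 4 rose and 3 fell there, where 19.3% of all genes rose and 20.5% fell. Krt19 went from 1528.9 ± 52 to 740.9 ± 22.6 CPM, while Epcam went from 849.8 ± 30.7 to 1171.4 ± 5.29 CPM. The fibroblast sum in spheroids went from between 1993.5 and 2255.8 CPM to between 681.8 and 737.3 CPM. The immune marker sum was 25.1 to 38.7 CPM in the 48 h monolayers and 45.5 to 51.4 CPM in the 96 h monolayers. The T cell gene Cd3e had at most 2 counts over the 3 libraries of any group. Within the sum Cd68 rose 10.2-fold (2.44 ± 0.453 to 24.9 ± 4.95 CPM) and Lyz2 1.60-fold, while Itgam fell 1.91-fold (21.2 ± 6.61 to 11.2 ± 2.66 CPM). In spheroids the immune sum was 30.7 to 37.7 CPM at 48 h and 32.2 to 35.4 CPM at 96 h. The endothelial sum went from between 40.5 and 54.8 CPM to between 65.2 and 70.9 CPM in monolayers, and from between 59.5 and 67 CPM to between 27.4 and 34.1 CPM in spheroids. In spheroids 8 of 8 endothelial markers fell with time (median -2.33), where 20.5% of all genes fell and 19.3% rose. Vwf held much of the sum in spheroids, at 28.9 ± 1.22 CPM at 48 h and 22.5 ± 2.88 CPM at 96 h. At 96 h Vwf was 4.76-fold higher in spheroids than in monolayers, while the other 7 endothelial markers were lower. Over all genes 37.3% were higher and 36.5% lower in spheroids at that time. The part of these markers in the changes of the NF-kB genes was not tested. In bulk cultures, fewer cells of a type and less RNA per cell cannot be told apart.

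The other genes of the pathway were read from 5 lists. Over all tested genes, 30.1% rose and 31.3% fell with time in monolayers, and 19.3% rose and 20.5% fell in spheroids. Over the 5 lists together, 17 genes were called higher with time in monolayers, but 36 with total-count scaling and 35 on log2 FPKM values, so the counts of rises there depend on the scaling. Of 7 other subunit and inhibitor genes, 5 fell with time in monolayers and 1 rose (median log2 change -0.55), while in spheroids 2 fell and none rose. Bcl3, a nuclear IkB protein that binds the Nfkb1 and Nfkb2 products, fell 2.71-fold in monolayers, from 20 ± 1.93 to 7.36 ± 0.192 CPM, and was 2.93-fold higher in spheroids than in monolayers at 96 h. Nfkbiz, another nuclear IkB protein, was 1.83-fold lower in spheroids at 48 h. Rel, the subunit gene of lymphoid cells, was scarce at 4.06 to 7.01 CPM on average and 1.61-fold higher in spheroids at 96 h (adjusted p = 0.00541). Nkiras1, which encodes a small GTPase-like protein that binds IkB, was the 1 gene of the list that rose in monolayers (1.40-fold, adjusted p = 0.0172), and it was 2.76-fold lower in spheroids at 96 h. Its gene overlaps Ube2e1. That rise of Nkiras1 ended without replicate 2 of the 48 h monolayers or replicate 1 of the 96 h monolayers (adjusted p up to 0.122).

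Of 23 kinases and adaptors, 7 rose and 4 fell with time in monolayers (median 0.08), and in spheroids 4 rose and 3 fell, beside the 30.1% and 31.3% of all genes in monolayers and the 19.3% and 20.5% in spheroids. Map3k14, the kinase of the slower route, fell 2.23-fold in monolayers, from 11 ± 0.163 to 4.93 ± 0.163 CPM, and was 1.79-fold higher in spheroids at 96 h. Ikbke, an IkB kinase relative, fell 1.72-fold in monolayers and was 2.09-fold lower in spheroids at 48 h. Ikbkg, the regulatory subunit of the IkB kinase, went the other way, rising 1.95-fold in monolayers from 50.9 ± 1.84 to 99.3 ± 2.69 CPM. It was 2.06-fold lower in spheroids at 96 h, and its gene overlaps G6pdx and Fam3a in RefSeq, so without a stated strand setting their reads may mix. Ripk1, a kinase of the tumour necrosis factor receptor complex, rose 1.49-fold in monolayers, although its gene overlaps Serpinb6a. Myd88, the adaptor of interleukin 1 and Toll-like receptors, was 1.87-fold higher at 48 h and 2.21-fold higher at 96 h in spheroids than in monolayers.

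Of 12 negative regulators, 2 rose and 2 fell with time in each format (median -0.01 in monolayers and 0.08 in spheroids), where 30.1% of all genes rose and 31.3% fell in monolayers and 19.3% and 20.5% did in spheroids. Tnip1, a partner of the Tnfaip3 protein, fell 1.36-fold in monolayers, and Zc3h12a, an RNase that degrades inflammatory messages, fell 1.44-fold there and 1.26-fold in spheroids. Irak3, which blocks interleukin 1 receptor kinases, was 3.31-fold higher in spheroids at 48 h and 2.31-fold higher at 96 h. Otud7b, a deubiquitinase of the slower route, was 1.77-fold and 1.72-fold lower. The interaction passed for 2 of the 12, Tnip1 (0.53) and Irak3 (-0.52). Over all genes it passed as positive for 26.9% and as negative for 26.4%.

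Of 20 ligand and receptor genes, 16 passed the filter, and 6 of these rose and 6 fell with time in monolayers (median -0.07), where 30.1% of all genes rose and 31.3% fell. The number of rises over the 5 lists, 17, became 36 with total-count scaling. Tnf, the gene of tumour necrosis factor, fell 4.03-fold in monolayers, from 19.3 ± 2.44 to 4.86 ± 1.25 CPM, and Il1a, that of interleukin 1 alpha, fell 5.04-fold, from 8.76 ± 1.06 to 1.74 ± 0.127 CPM. In spheroids Tnf stood at 5.53 ± 0.463 CPM at 48 h and 5.82 ± 0.301 CPM at 96 h, and its interaction was 2.09 ± 0.236 (adjusted p = 7.21e-07). Il1rn, the natural blocker of the interleukin 1 receptor, was 11.6-fold higher in spheroids at 48 h and 23.6-fold higher at 96 h. The receptor gene Cd40 was 18.2-fold and 56.2-fold lower in spheroids at these times, with 21 and 8 counts left over the 3 spheroids. Its log2 change ran from -4.57 to -2.59 at 48 h and from -5.93 to -2.95 at 96 h under the alternatives. Tnfrsf11b, the decoy receptor for the RANK ligand, was 30.6-fold lower in spheroids at 48 h and then rose 8.14-fold in them. Both folds rest on 28 counts over the 3 spheroids of 48 h. Under the alternatives the log2 change ran from -5.02 to -3.04 for the first and from 1.51 to 3.11 for the rise. Of the Toll-like receptor genes, Tlr4 rose 2.70-fold with time in monolayers, Tlr3 rose 1.68-fold in monolayers and 2.07-fold in spheroids, and Tlr2 was 5.18-fold higher in spheroids than in monolayers at 96 h.

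Of 26 other target genes 24 passed the filter. In monolayers 14 fell with time and 1, Lcn2, rose (median -0.54), and in spheroids 15 fell and 6 rose (median -0.38). Over all genes 31.3% fell and 30.1% rose in monolayers, and 20.5% fell and 19.3% rose in spheroids. The chemokine gene Ccl2 fell in each format, from 85.5 ± 11.1 to 5.24 ± 1.02 CPM in monolayers (16.5-fold) and from 46.3 ± 4.48 to 5.33 ± 0.603 CPM in spheroids (8.66-fold). Csf2, a growth factor of granulocytes and macrophages, fell 23.1-fold in monolayers. That fold rests on 12 counts over the 3 monolayers of 96 h, and its log2 change ran from -5.1 to -2.72 under the alternatives. At 48 h it had 303 counts in monolayers and 2 in spheroids, which makes a 128-fold ratio (95% counting interval 35 to 1060). Lcn2, a siderophore-binding protein, rose 1.75-fold in monolayers and 2.50-fold in spheroids. Cxcl5, a neutrophil chemokine, was 7.50-fold higher in spheroids than in monolayers at 48 h and 122-fold higher at 96 h, from 1.18 ± 0.277 to 146.6 ± 5.7 CPM. Csf1 was 10.7-fold lower in spheroids at 96 h. Il6 had 287 counts over the 3 monolayers and 8 over the 3 spheroids at 96 h, and its fitted 41.1-fold lower level in spheroids rests on those 8 counts. Its log2 change at 96 h ran from -5.71 to -2.98 under the alternatives. At that time 10 of the 24 were higher and 10 lower in spheroids, where 37.3% of all genes were higher and 36.5% lower.

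**Figure D4:**
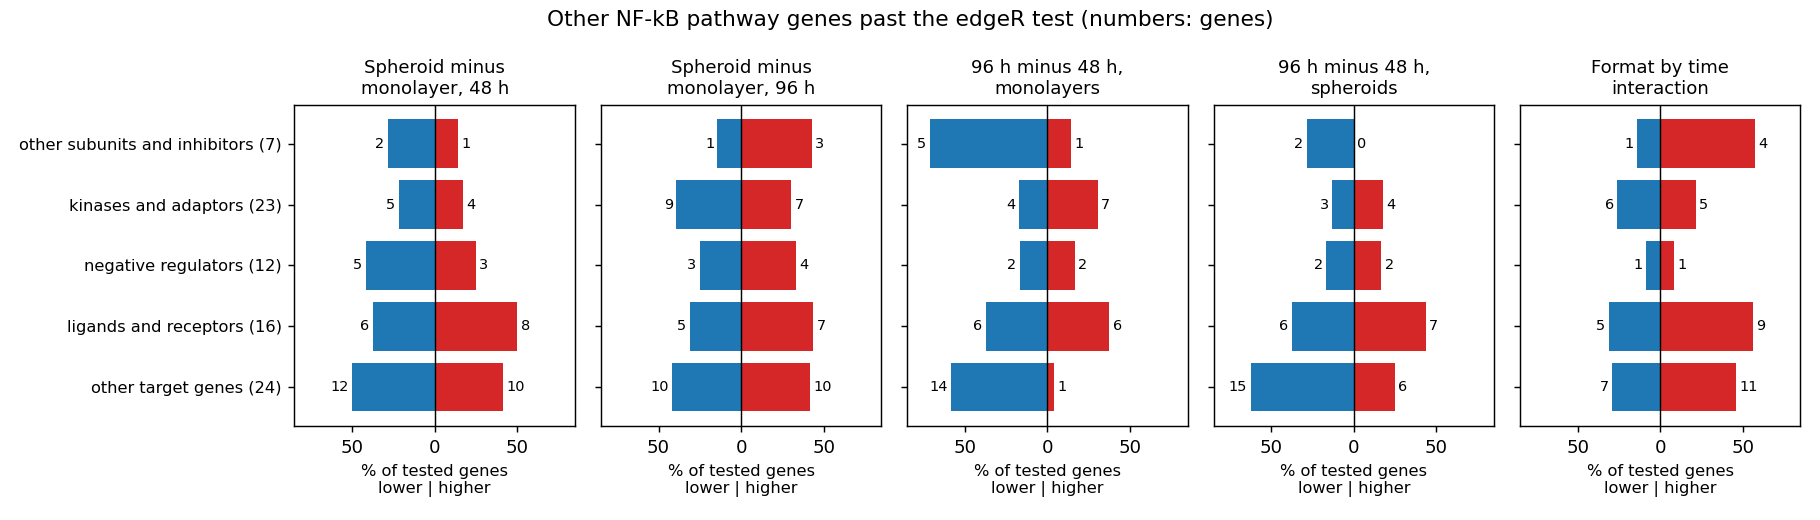
Share of tested genes in 5 other lists of pathway genes that were lower (left, blue) or higher (right, red) in each comparison by edgeR's test, with the number of genes beside each bar and the number tested in parentheses. For time in monolayers, 14 of 24 other targets and 5 of 7 other subunit and inhibitor genes are lower, as are 31.3% of all tested genes.

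Among the 10 genes, profiles over the 12 libraries were most alike for Nfkb2 and Birc3 (Pearson r of log2 CPM 0.94), Nfkbia and Birc3 (0.93) and Rela and Tnfaip3 (0.93). They were least alike for Nfkb1 and Tnfaip3 (0.14) and Nfkb1 and Traf1 (0.18). Outside the list, the genes nearest in profile among 10098 whose log2 CPM averaged 3 or more were Lpcat4 for Nfkb2 (r = 0.992), Lasp1 for Tnfaip3 (0.989), Bst1 for Nfkb1 (0.987), Fdft1 for Nfkbie (0.985), Uap1 for Icam1 (0.985), Kctd9 for Birc3 (0.982), Tuba1c for Nfkbia (0.977), Pbxip1 for Traf1 (0.967), Actr1b for Rela (0.962) and Dnajc21 for Relb (0.91). These values are over 12 libraries in 4 groups and follow mainly the group means, and with this many genes high values are found for any profile. They are given without a test.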

How the data were processed

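Messenger RNA libraries (Illumina TruSeq, per the labels' protocols) from 12 cultures were analysed. The submitters' processing notes name bcl2fastq 2.15.0, Bowtie 1.0.1, RSEM 1.2.30 and build mm9. For the strand setting no value is given in the sources used here. Expected counts per gene, rounded to whole numbers, were deposited by the authors with log2 values of FPKM plus 1. A deposited table pairs rows with symbols. The series text calls the replicates biological. Separate animals are not stated, so p-values measure the spread between these cultures.

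Counts were tested with edgeR 4.0.16 in R 4.3.3: filterByExpr (minimum count 10, total 15), TMM scaling (factors 0.923 to 1.07), and 1 quasi-likelihood fit of 12 libraries with group as its term. Tests were 2-sided, with Benjamini-Hochberg adjustment over 13951 genes per comparison and a threshold of 0.05. The verbs rose and fell, and a fold between groups with no p beside it, are kept for genes past this threshold. SE is the log2 change divided by the root of F, and understates the error of groups with few counts. A 95% interval is the normal interval from that SE. CPM uses TMM-scaled totals, and 3 counts stand for 0.223 to 0.376 CPM in a library. Counting intervals (Clopper-Pearson, 95%) cover counting error only. The script was tested on simulated data. Nfkb1, Nfkb2 and Traf1 overlap other RefSeq genes (Nfkb2 overlaps Psd), whose reads may mix with theirs.

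Members, lists and tests were chosen with earlier results of these data known. From each pathway list the genes named with values are taken from the 2 largest rises and 2 largest falls past the threshold in each comparison, among genes whose log2 CPM averaged 1 or more. Genes like a member have the highest Pearson r. Alternatives were other scalings, filters, DESeq2 1.42.0, limma 3.58.1 on log2 FPKM, a replicate block, only the groups compared, and each library left out.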

Additional observations from a re-analysis of the deposited data

Results flagged for a closer look

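The difference between spheroids and monolayers changed between 48 h and 96 h, by the interaction test in edgeR with adjustment over all genes, for each of the 10 genes. The interaction, in log2 units, was 0.75 for Nfkb1 (adjusted p = 3.84e-06), 1.18 for Nfkb2 (9.76e-09), 0.35 for Rela (0.00265) and 0.67 for Relb (0.00152). It was 0.57 for Nfkbia (adjusted p = 0.000128) and 1.47 for Nfkbie (1.92e-07). For the target genes it was 1.42 for Tnfaip3 (adjusted p = 1.64e-08), 1.35 for Birc3 (4.84e-08), 1.61 for Traf1 (3.14e-05) and 0.30 for Icam1 (0.0379). For Nfkb2, Relb, Nfkbie and Birc3 the spheroids were called lower at 48 h and higher at 96 h. These values are not independent of those in the report.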

How the results depend on the processing

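Of 1040 values of the 10 genes under alternatives, 972 kept their direction and side of the threshold, 45 lost a call, 3 gained one and 20 changed sign. None of the 20 had passed the test, and the cause was not tested. The 10 falls in monolayers held under every alternative. Members called lower in spheroids at 48 h numbered 6 to 7, those called higher at 96 h 5 to 6, and those with a positive interaction 8 to 10.

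Total-count scaling called 1 member higher in spheroids at 48 h (0 otherwise) and 36 pathway genes higher with time in monolayers, against 17. Limma on log2 FPKM called 35 there. The 2 rises in spheroids became 1 with RLE or total-count scaling, no filter, the replicate block or only the groups compared, and 0 with upper-quartile scaling, a minimum count of 50 or DESeq2. Leaving out single libraries gave 0 to 2.

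Sign changes were as follows. Nfkbia at 48 h was -0.004 with RLE scaling and with DESeq2 and -0.0022 with only the groups compared (-0.039 to 0.11 without single libraries). Rela at 96 h was -0.034 with upper-quartile scaling, -0.019 with total-count scaling, -0.0011 with the minimum of 50 and -0.02 with limma. Relb over time in spheroids was -0.012, -0.0047 and -0.013 under the first 3 of these and -0.0054 with only the groups compared (-0.015 to 0.064 without single libraries). Without single libraries Tnfaip3 at 96 h ranged from -0.16 to 0.009, and over time in spheroids Nfkb1 ranged from -0.0098 to 0.065, Rela from -0.064 to 0.018 and Tnfaip3 from -0.12 to 0.052.

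Same-numbered libraries did not deviate together (r from -0.11 to 0.09 over 18 pairs). This finds no shared effect of the replicate number, but it cannot show whether same-numbered cultures had a common preparation. The replicate block ended 1 call of a member, the rise of Traf1 in spheroids (adjusted p = 0.067, edgeR). The interaction uses all 4 groups, so it has no fit of only the groups compared. Depth limits Traf1 most, with 644 counts over 12 libraries.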

Other observations

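The receptor RANK and its ligand, which signal to NF-kB in the mammary gland, were looked at after their values had been seen. Tnfrsf11a, the gene of RANK, was 1.4-fold higher in spheroids than in monolayers at 48 h (15.4 ± 1.32 against 11.1 ± 1.52 CPM, SD, n = 3, edgeR adjusted p = 0.00139) and 3.89-fold higher at 96 h (30.1 ± 1.03 against 7.77 ± 0.537 CPM, adjusted p = 1.41e-11). Its interaction was 1.48 (adjusted p = 4.47e-07). Tnfsf11, the gene of the ligand, did not pass the filter on low counts. Over 3 libraries it had 20 counts in spheroids and 1 in monolayers at 48 h (ratio 23.7, 95% counting interval 3.8 to 984), and 24 and 2 at 96 h (ratio 9.87, interval 2.45 to 86.2).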
